A study of Mus musculus with 6 samples.

Results

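Elane, Mpo, Prtn3, Ctsg, Ms4a3 and Prss57 are 6 genes that granulocyte precursors switch on when they begin to build their primary (azurophil) granules. They were taken by name from the 24965 genes of an RNA-seq table, and all 6 were found in it. The table holds donor cells of WT and Hemgn-/- bone marrow, recovered 6 h after transplantation, with 3 libraries of each genotype. All 6 genes had lower mean levels in Hemgn-/- than in WT cells. The decrease passed the test for Elane, Mpo, Ms4a3 and Prss57 and did not pass it for Prtn3 and Ctsg.

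Primary granules are the first granules to form in the neutrophil lineage, at the promyelocyte stage, and their proteins are made in a short window before secondary granules appear. Elane, Prtn3 and Ctsg encode the serine proteases neutrophil elastase, proteinase 3 and cathepsin G, which are made as inactive precursors, trimmed by cathepsin C and stored bound to the proteoglycan serglycin. Prss57 encodes neutrophil serine protease 4, a further protease of the same granules. Mpo encodes myeloperoxidase, the heme enzyme that makes hypochlorous acid from hydrogen peroxide and chloride. Ms4a3 encodes a four-pass membrane protein that is widely used to mark granulocyte-monocyte progenitors and their offspring.

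The donors were C57BL/6 mice (CD45.2+), either WT or Hemgn-/-, in which zinc finger nucleases had removed 2 bases of the Hemgn coding sequence in all cells and so brought in an early stop codon. Mice of both sexes, aged 8 to 10 weeks, were used. Their marrow was injected into CD45.1+ recipients that had received a split dose of 9 Gy, so that every donor cell in both groups had spent 6 h in an irradiated host. The labels give the sorted cells as CD45.2+Lin-Sca-1+, whereas the methods of the study describe LSK cells, which carry c-Kit as well. The methods call the 3 replicates of each group biological, and neither source says which donors and recipients lie behind each of them.

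The libraries held 23668015 to 28897360 fragments. Hemgn, the mutated gene, was at 5.64, 2.96 and 4.68 FPKM (fragments per kilobase of exon, scaled to the depth of the library) in WT libraries and at 0.755, 0.913 and 1.6 in Hemgn-/- libraries. The small mutation leaves the rest of the gene in place, and the source of the Hemgn reads in Hemgn-/- libraries was not tested. The transcripts of the sorted population did not look like those of HSPCs (hematopoietic stem and progenitor cells) alone. Kit was between 5.50 and 7.24 FPKM in all libraries, and Ly6a, which encodes Sca-1, was between 8.27 and 17.3. Of 20 HSPC markers, 17 were above 1 FPKM in at least 1 library, among them Cd34 (7.23 to 11.9). Mecom, Tal1 and Fgd5 were below 1 in every library. Ngp, a secondary granule gene, was between 26488 and 46692 FPKM, and S100a9, a gene of mature neutrophils, was between 6340 and 9539. The 6 primary granule genes were therefore read in a mixture in which later neutrophil transcripts were far more abundant. In such bulk samples, fewer granulocyte precursors and less of each transcript per precursor cannot be told apart.

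Elane had the highest FPKM of the 6 genes in WT cells, an order that depends on the length used for Mpo (given later). Its level was 289, 305 and 313 FPKM in WT libraries and 166, 197 and 185 in Hemgn-/- libraries. The groups were well apart, and the highest Hemgn-/- library was below the lowest WT library. The mean fell from 302 ± 12.1 to 183 ± 15.6 FPKM (SD, n = 3 each), which is 1.66-fold lower, with a log2 fold change of -0.73 (SE 0.08, 95% interval -0.90 to -0.55) and an adjusted p of 0.00148 by limma. The call was made in all 15 alternative settings, with adjusted p from 3.1e-04 to 0.0292.

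Prss57, which lies on the same stretch of chromosome 10 as Elane, was 11, 11.9 and 10.9 FPKM in WT and 5.83, 6.67 and 6.27 in Hemgn-/- libraries. Again no Hemgn-/- library reached a WT library. The mean fell 1.69-fold, from 11.3 ± 0.574 to 6.26 ± 0.417 FPKM, with a log2 fold change of -0.76 (SE 0.10, interval -0.99 to -0.53) and a limma adjusted p of 0.00428. This call was also made in all 15 alternatives (adjusted p 0.00251 to 0.0236).

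Ms4a3 was 16.0, 13.9 and 14.9 FPKM in WT and 6.65, 9.83 and 9.06 in Hemgn-/- libraries, without overlap. Hemgn-/- replicate 1 was the lowest, and the Hemgn-/- libraries spread more widely than those of WT. The mean fell 1.69-fold, from 14.9 ± 1.02 to 8.51 ± 1.66 FPKM, with a log2 fold change of -0.76 (SE 0.14, interval -1.08 to -0.44) and a limma adjusted p of 0.0163. The size of the change was close to that of Prss57, but the call was made in 10 of 15 alternatives. It was lost without WT replicate 1 (adjusted p 0.0629), WT replicate 3 (0.0578) or Hemgn-/- replicate 3 (0.0509).

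Mpo fell less. Its level was 252, 248 and 273 FPKM in WT and 214, 201 and 210 in Hemgn-/- libraries, a narrow gap that no library crossed. The mean went from 258 ± 13.3 to 208 ± 6.93 FPKM, 1.24-fold lower, with a log2 fold change of -0.31 (SE 0.06, interval -0.45 to -0.16) and a limma adjusted p of 0.0265. The call was made in 7 of 15 alternatives, and leaving out a library raised adjusted p past the threshold in 4 cases, to 0.0759 (WT replicate 1), 0.0860 (WT replicate 3), 0.0818 (Hemgn-/- replicate 2) and 0.102 (Hemgn-/- replicate 3).

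Prtn3, the gene next to Elane, did not pass the threshold. It was 76.7, 93.5 and 74.5 FPKM in WT and 55.7, 69.0 and 63.4 in Hemgn-/- libraries, which did not overlap, although WT replicate 2 stood above the other WT libraries. The mean was 81.6 ± 10.4 in WT and 62.7 ± 6.69 FPKM in Hemgn-/- cells (log2 fold change -0.37, SE 0.11, interval -0.63 to -0.12, limma adjusted p = 0.0923). When that library was left out, the log2 fold change shrank to -0.27 (adjusted p = 0.193).

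Ctsg differed least, and its groups overlapped. It was 53.5, 53.3 and 60.2 FPKM in WT and 40.5, 53.8 and 50.9 in Hemgn-/- libraries, so that Hemgn-/- replicate 2 was above WT replicates 1 and 2. The log2 fold change of -0.21 (SE 0.11) had a 95% interval from -0.46 to 0.05 (limma adjusted p = 0.342), which leaves room both for a decrease like that of Mpo and for no change.

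**Figure D1:**
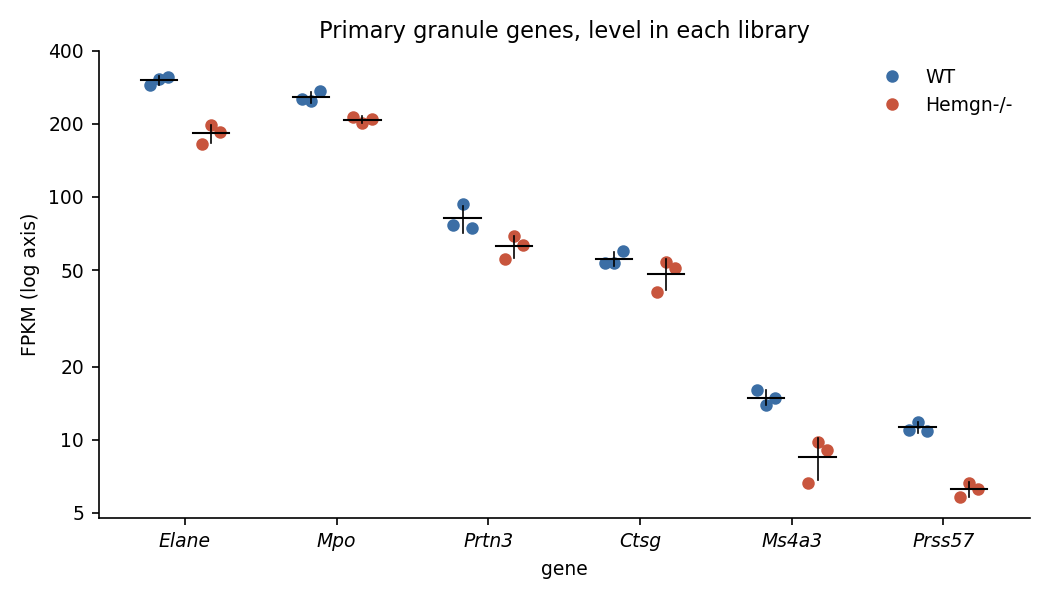
FPKM (log axis) of the 6 primary granule genes in each library, with WT in blue and Hemgn-/- in red; each point is 1 library, horizontal bars are means and vertical bars are SD (n = 3). The groups do not overlap for 5 genes and overlap for Ctsg, where Hemgn-/- replicate 2 (53.8 FPKM) is above 2 WT libraries.

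Of the 6 genes, 4 were lower at an adjusted p under 0.05, against 287 of 13739 genes tested (2.09%), and 0 were higher, against 600 genes (4.37%). The study's thresholds, an unadjusted p under 0.05 and 1.5-fold, were also applied to the limma values, which do not come from the study's own test. By these, 3 of the 6 were lower (Elane, Ms4a3 and Prss57), against 2.74% of all genes tested. The groups did not overlap, with Hemgn-/- below WT, for 5 of the 6 and for 8.18% of all genes tested. The median log2 fold change was -0.55 over the 6 genes and 0.087 over all genes tested. The balance of calls over all genes depended on the scaling between libraries, with 342 higher and 387 lower after median-ratio scaling and 369 higher and 350 lower after quantile normalization, and 1062 higher and 238 lower when every library was set to the same FPKM total. The median of the 6 genes was -0.65, -0.59 and -0.46 under these 3 settings, and none of the 6 changed sign.

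**Figure D2:**
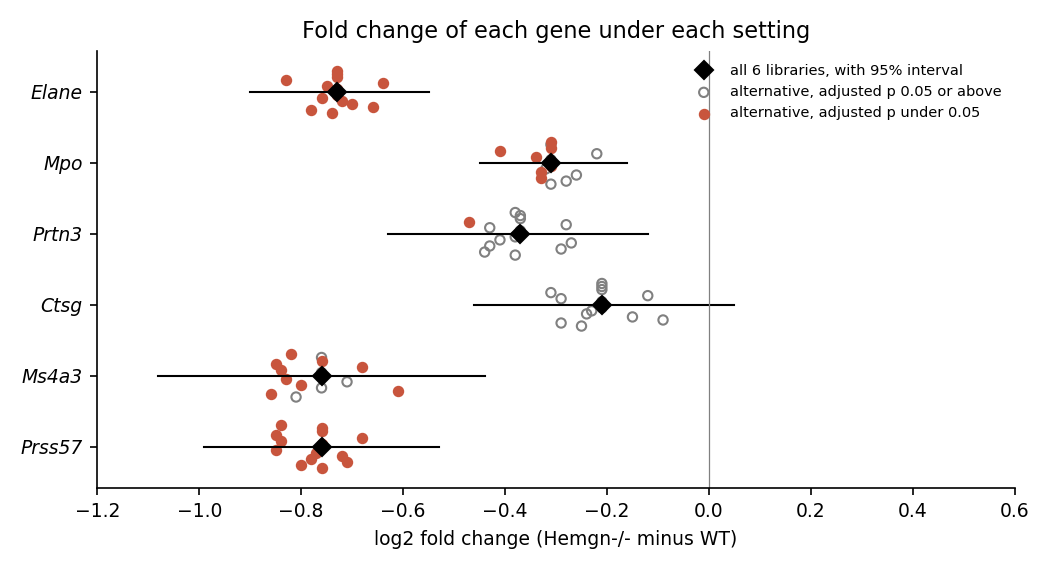
Log2 fold change (Hemgn-/- minus WT) of each gene with all 6 libraries (diamond, with its 95% interval) and in each of 15 alternative settings (circles, filled where the adjusted p was under 0.05). Elane and Prss57 are filled throughout, Mpo in 7 and Ms4a3 in 10 settings, Prtn3 in 1 and Ctsg in 0, and all points lie below 0.

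Because the 6 genes moved by different amounts, their proportions to each other differed between the genotypes. Their summed level was 723.8 ± 24.1 FPKM in WT and 516.8 ± 24.9 FPKM in Hemgn-/- cells (SD, n = 3 each). Elane made up 41.4 to 42.0% of the sum in WT and 33.9 to 36.7% in Hemgn-/- libraries, and Mpo made up 34.2 to 36.6% and 37.4 to 43.8%. The ratio of Elane to Mpo was 1.15, 1.23 and 1.15 in WT and 0.78, 0.98 and 0.88 in Hemgn-/- libraries. Elane was thus above Mpo in every WT library and below it in every Hemgn-/- library on the FPKM scale.

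Among the 15 ratios between pairs of the 6 genes, 9 did not overlap between the genotypes, namely those of Elane, Ms4a3 or Prss57 to Mpo, Prtn3 or Ctsg. The log2 difference in these ratios ran from 0.35 for Elane over Prtn3 to 0.64 for Ctsg over Prss57 in size, always with the larger decrease in Elane, Ms4a3 and Prss57. Within each of these trios the ratios overlapped, and Elane over Prss57, for example, was 26.28, 25.56 and 28.88 in WT and 28.45, 29.52 and 29.55 in Hemgn-/- libraries. An exact two-sided permutation test of 3 against 3 libraries cannot give a p under 0.1, which each of the 9 ratios had (0.17 when adjusted over 15 ratios), so none of them could pass a threshold of 0.05. The trios were formed after the values were seen, and the 9 ratios restate the different fold changes of the 6 genes given above. How often ratios between other genes do not overlap is not given here, so the 9 of 15 have no background.

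**Figure D3:**
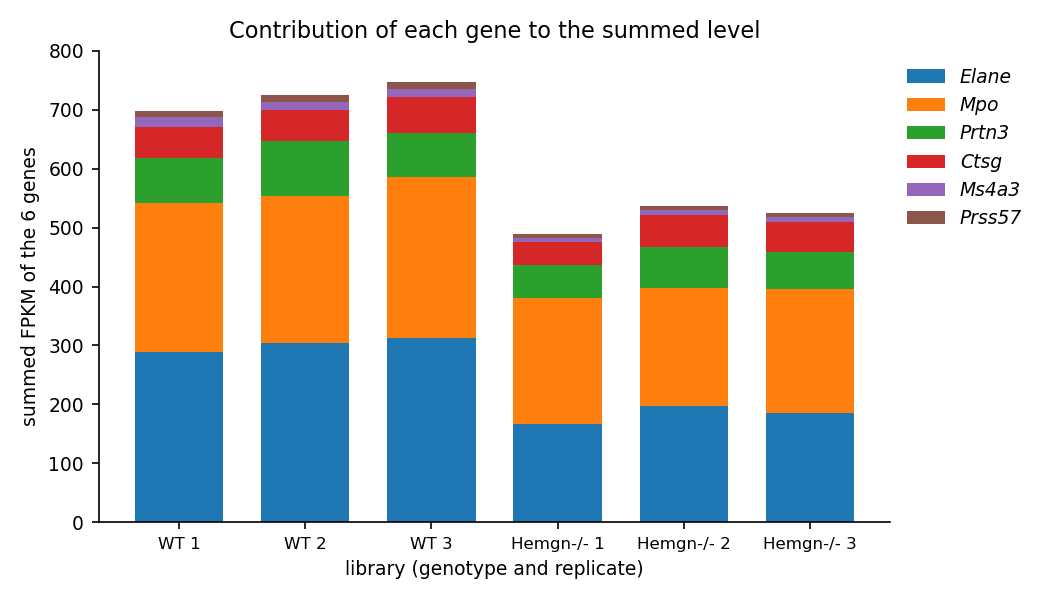
Summed FPKM of the 6 genes in each library, with the part of each gene stacked from Elane at the base to Prss57 at the top. The WT libraries sum to 698.9 to 746.9 FPKM and the Hemgn-/- libraries to 488.8 to 536.7 FPKM, and the Elane part shrinks more than the Mpo part.

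The order of levels between genes depends on the length behind the FPKM. On the FPKM scale the order in WT was Elane, Mpo, Prtn3, Ctsg, Ms4a3 and Prss57, with no overlap between neighbours, and in Hemgn-/- cells Mpo stood above Elane and the ranges of Ms4a3 (from 6.65) and Prss57 (up to 6.67) met. The FPKM values were divided by the length of all annotated exons, which is 3424 bases for Mpo, 1732 for Prtn3 and 1884 for Ms4a3, while their longest protein-coding transcripts have 2750, 1025 and 1010 bases. Per length of the longest protein-coding transcript, the WT mean of Mpo would be 321 and that of Elane 302, and the Hemgn-/- means 259 and 183. Elane is then below Mpo in both genotypes, while the change in their ratio stays the same. Mean levels of Prtn3 on this scale were 138 and 106, and those of Ms4a3 27.9 and 15.9, in WT and Hemgn-/- cells.

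Elane, Prtn3 and Prss57 sit close together on chromosome 10 in the mouse genome (GRCm38, GENCODE M21), Prss57 at chr10:79781474-79790961 on the minus strand, Prtn3 at chr10:79874476-79883174 and Elane at chr10:79886247-79888215, both on the plus strand. Prss57 ends 83515 bases before Prtn3 begins, and 3073 bases separate Prtn3 from Elane. Mpo lies at chr11:87793581-87804413 on the plus strand, Ctsg at chr14:56099881-56102574 and Ms4a3 at chr19:11629496-11640851, both on the minus strand. Prtn3 overlaps Plppr3 and Prss57 overlaps Fstl3, in both cases on the opposite strand, and Mpo overlaps the antisense gene Gm11505. Whether the counting used strand is not given in the sources used here, so reads in the shared stretches cannot be assigned. Plppr3 was at a mean of 1.11 FPKM in WT and 1.45 in Hemgn-/- cells, and Fstl3 and Gm11505 were below the filter of 1 FPKM.

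The sequences before the start sites are shown because Elane and Prtn3 lie side by side and the 6 genes are expressed in the same precursors. The windows are from RefSeq (GRCm38.p6), which held 5 of the 6 genes and had no window for Prss57. The window of Ms4a3 is not printed. They start 250 bases before the RefSeq start and are cut where the first GENCODE exon begins. Capitals mark GAGGAA, the core of PU.1 (Spi1) sites, and, in Ctsg, also matches to TATAAA and to TGTGGT on the strand opposite to the gene. The Prtn3 window lies inside an intron of a longer annotated Prtn3 transcript.
Elane, chr10:79886062-79886246, plus strand: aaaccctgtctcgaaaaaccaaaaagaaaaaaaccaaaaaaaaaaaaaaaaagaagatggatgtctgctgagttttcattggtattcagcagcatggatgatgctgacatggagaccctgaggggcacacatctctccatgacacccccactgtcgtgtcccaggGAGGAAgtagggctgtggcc
Prtn3, chr10:79879417-79879613, plus strand: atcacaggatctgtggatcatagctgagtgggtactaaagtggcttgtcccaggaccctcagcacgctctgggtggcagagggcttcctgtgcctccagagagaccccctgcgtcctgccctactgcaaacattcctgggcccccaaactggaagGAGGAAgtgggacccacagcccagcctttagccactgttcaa
Mpo, chr11:87793534-87793580, plus strand: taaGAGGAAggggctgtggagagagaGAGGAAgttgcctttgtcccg
Ctsg, chr14:56102575-56102824, minus strand: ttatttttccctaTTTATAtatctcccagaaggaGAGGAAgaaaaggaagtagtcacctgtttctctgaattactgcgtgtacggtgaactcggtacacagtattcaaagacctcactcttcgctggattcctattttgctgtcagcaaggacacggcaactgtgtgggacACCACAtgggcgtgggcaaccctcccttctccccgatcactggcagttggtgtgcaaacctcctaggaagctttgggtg

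GAGGAA was present in all 5 windows of 300 bases (250 before and 50 after the start), and in 28.3% of 32851 such windows over all genes, on either strand. It began at position -85 in Elane and -95 in Prtn3, counted from the RefSeq start, at -247 and -224 in Mpo, at -216 in Ctsg and, after the start, at position 35 in Ms4a3. CAACGG, a MYB site, was found in Elane (from -51) and Prtn3 (from -56) and in 5.1% of all windows. In neither gene does the CAACGG match lie wholly inside the printed stretch. TTGCNNAA, a C/EBP motif, matched in Ms4a3 (10.8% of all windows), and TGTGGT, the RUNX core, and TATAAA, the TATA box, matched in Ctsg (16.8 and 13.6% of all windows). None of these motifs overlapped another in the 5 windows, and they were chosen after the sequences had been seen. Elane and Prtn3 thus carry the same 2 motifs at similar positions, and a match to letters is no evidence that a factor binds there.

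Within 100000 bases of the 6 genes there were 71 other annotated genes, of which 31 could be tested, and their median log2 fold change was 0.11. The share called in either direction was 6.5% (2 of 31), as over all genes tested (6.5%). On chromosome 10, 16 neighbours of Elane, Prtn3 and Prss57 were tested and 0 passed an adjusted p of 0.05 by limma in either direction, while 3 were higher and 0 lower at an unadjusted p under 0.05. Around Mpo 9 were tested. Epx, the eosinophil peroxidase gene 59587 bases downstream of Mpo, fell from a mean of 19.5 to 2.09 FPKM (log2 fold change -2.72, limma adjusted p = 1.9e-05), and Mir142hg, the host gene of a blood cell miRNA, rose from 24.0 to 32.3 FPKM (0.42, adjusted p = 0.0308). Around Ctsg 1 neighbour and around Ms4a3 5 neighbours were tested, and 0 passed, with 2 of those around Ms4a3 higher at an unadjusted p under 0.05. The share of all genes tested past this unadjusted threshold is not given here, so the unadjusted counts have no background beside them.

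**Figure D4:**
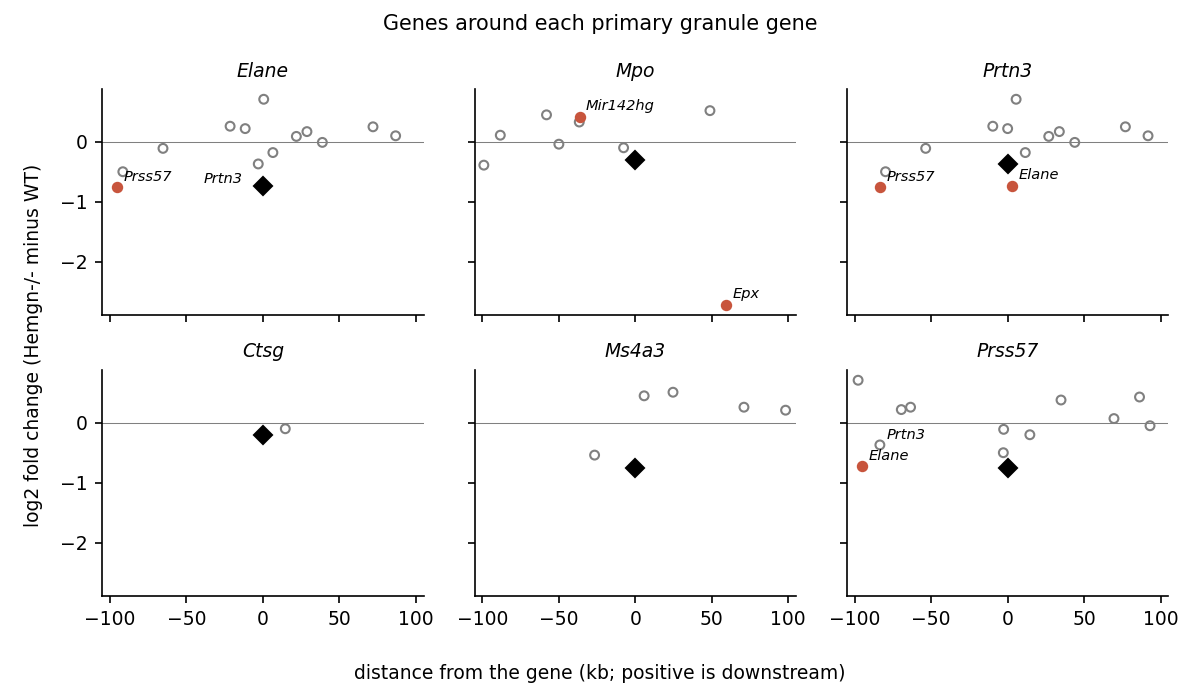
Log2 fold change (Hemgn-/- minus WT) of the tested genes within 100 kb of each primary granule gene (diamond at 0), by distance in the direction of its transcription; filled circles have an adjusted p under 0.05. Apart from the members themselves, the filled circles are Epx and Mir142hg near Mpo.

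The machinery that processes, stores and restrains the granule proteases was tested through 16 genes of a list of 17, of which 1 fell and 1 rose (median 0.05, and -0.04 after median-ratio scaling). Ctsc, which encodes the cathepsin C that activates Elane, Prtn3 and Ctsg products, was 46.5, 49.4 and 49.4 FPKM in WT and rose to between 72.4 and 81.6 in Hemgn-/- libraries (log2 fold change 0.65, SE 0.07, limma adjusted p = 0.00222). Serpinb1a, a cytosolic inhibitor of elastase, cathepsin G and proteinase 3, was 714, 741 and 737 FPKM in WT and fell to between 464 and 477 (log2 fold change -0.63, SE 0.05, adjusted p = 3.4e-04). Srgn, the serglycin gene, was 252, 256 and 246 FPKM in WT and had a log2 fold change of 0.07 (SE 0.10, adjusted p = 0.744). Both calls were made in all 15 alternatives.

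Of 23 tested genes for other contents of primary granules and lysosomes, 3 fell and 0 rose, with a median of 0.03. Median-ratio scaling gave 5 lower and 0 higher and a median of -0.06, and the same FPKM total gave 2 lower and 3 higher. Cd63, a membrane protein of primary granules and lysosomes, was between 109 and 117 FPKM in WT and fell by 0.64 on the log2 scale (limma adjusted p = 0.00432). Prdx5, a peroxiredoxin, fell by 0.49 (adjusted p = 0.00940). The Prdx5 call was lost without Hemgn-/- replicate 3, with no filter beyond FPKM above 0 and with eBayes without a trend. Lyz2, lysozyme, which neutrophil granules and macrophages hold, fell by 0.37 (adjusted p = 0.0454), but this call was lost whichever library was left out. When Hemgn-/- replicate 3 was left out, 1 of the 23 was called.

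Regulators of granulocyte and monocyte progenitors moved both ways, with 2 lower and 1 higher of 16 tested (median -0.03, and 0.06 with the same FPKM total). Cebpe, which drives the step from promyelocyte to myelocyte, was 71.0, 91.6 and 87.2 FPKM in WT and fell by 1.27 on the log2 scale (SE 0.11, limma adjusted p = 3.6e-04), a call made in all alternatives. Spi1, which encodes PU.1, was 179, 335 and 220 FPKM in WT and fell by 1.01 (SE 0.24, adjusted p = 0.0399). WT replicate 2 was far above the other WT libraries for Spi1, and the call was lost without it, as it was without WT replicate 3, Hemgn-/- replicate 2 or Hemgn-/- replicate 3. The Spi1 call was also lost with no filter beyond FPKM above 0 and with eBayes without a trend. Irf8, a factor of monocyte and dendritic cell fate, rose by 0.75 (adjusted p = 6.6e-04). Cebpa (log2 fold change 0.04), Gfi1 (0.15) and Myb (-0.27) had adjusted p of 0.937, 0.783 and 0.265, and the levels of Cebpa and Gfi1 were close to the filter of 1 FPKM.

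The surface and early genes of these progenitors, 23 tested, had 2 lower and 6 higher (median 0.00), and 4 lower and 4 higher after median-ratio scaling. Fcnb, a ficolin made in the early neutrophil lineage, was 101, 91.6 and 96.8 FPKM in WT and fell by 1.52 on the log2 scale (SE 0.08, limma adjusted p = 3.3e-05), more than any of the 6 primary granule genes. F13a1, a coagulation factor subunit of monocytic cells, rose from between 11.5 and 12.5 FPKM by 0.91 (adjusted p = 0.00196). Csf1r, the M-CSF receptor, rose by 0.50 (adjusted p = 0.0161, lost without WT replicate 1 or Hemgn-/- replicate 3 and with eBayes without a trend). Without Hemgn-/- replicate 3 the list had 2 genes higher, without WT replicate 3 or Hemgn-/- replicate 2 it had 3, and each of these fits had 1 gene lower. With eBayes without a trend the list had 1 gene lower and 1 higher.

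Genes of later neutrophil stages were called in opposite directions. Of 21 secondary granule genes, which follow the primary granule genes in maturation, 9 fell and 0 rose (median -0.34), and 6 to 10 fell when 1 library was left out, 3 with no filter beyond FPKM above 0 and 4 with eBayes without a trend. Ngp fell by 0.73 on the log2 scale (limma adjusted p = 1.3e-04), from between 43176 and 46692 FPKM in WT, a call lost with no filter and with quantile normalization (adjusted p up to 1). Why the Ngp call was lost under these settings was not tested. Camp, cathelicidin, fell by 0.92 (adjusted p = 0.00257), and Orm1, an acute phase glycoprotein, fell by 1.30 (adjusted p = 0.00655). Of 23 genes of mature neutrophils, in contrast, 0 fell and 6 rose (median 0.17). This list was mixed, with log2 fold changes below 0 in 7 of 23, among them Ly6g (-0.36) and S100a8 (-0.33), which were not called. Its summed level overlapped between the groups, with 19482 to 20960 FPKM in WT and 16179 to 21210 in Hemgn-/- libraries. Cxcr2, the receptor that draws mature neutrophils out of the marrow, rose by 0.58 (adjusted p = 6.6e-04) and Il1b by 0.61 (adjusted p = 0.0125, lost without Hemgn-/- replicate 3, with no filter or without a trend), while S100a9 had a log2 fold change of -0.19 (adjusted p = 0.452). Of the mature neutrophil genes, 2 were higher when Hemgn-/- replicate 3 was left out, 3 with no filter or with median-ratio scaling and 1 without a trend, and 1 was lower with median-ratio scaling, with quantile normalization or when WT replicate 2 was left out.

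**Figure D5:**
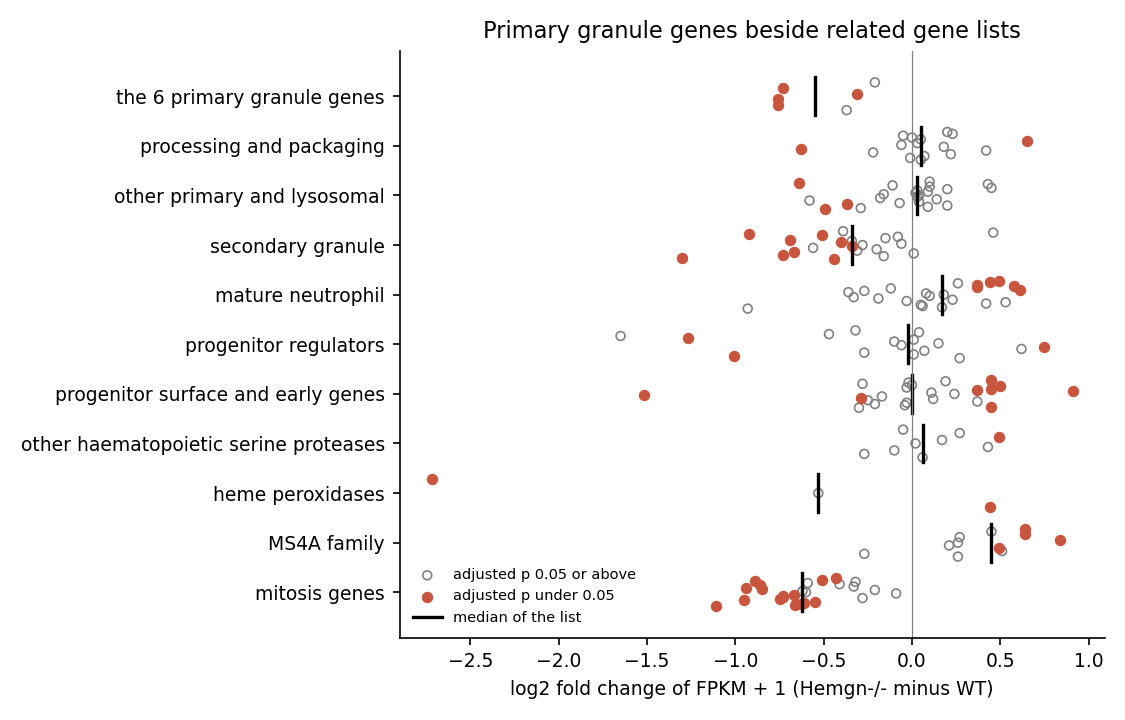
Log2 fold change (Hemgn-/- minus WT) of each tested gene in the 6 primary granule genes and 10 related lists; filled points have an adjusted p under 0.05 and the vertical bar is the median of the list. The median of the primary granule genes (-0.55) lies to the left, with those of the secondary granule (-0.34), heme peroxidase (-0.53, 3 genes) and mitosis (-0.62) lists. The median of the MS4A family (0.45) lies to the right.

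Relatives of the 6 proteins were tested in 3 lists. Among 9 tested serine proteases of other blood cells, 0 fell and 1 rose, Gzma (granzyme A, log2 fold change 0.49, limma adjusted p = 0.0155). The Gzma call was lost without WT replicates 1 or 3 or Hemgn-/- replicates 2 or 3, with eBayes without a trend and with voom. Of 11 tested members of the MS4A family, 0 fell and 4 rose (median 0.45), and 2 rose without WT replicate 1 or without Hemgn-/- replicate 3. Ms4a4c rose by 0.84 (adjusted p = 9.2e-04) and Ms4a1, which encodes the B cell protein CD20, by 0.64 (adjusted p = 0.00168). Among 3 tested heme peroxidases related to Mpo in function, Epx fell as above and Ptgs2, cyclooxygenase 2, rose by 0.44 (adjusted p = 0.00726, lost without a trend). Ptgs1, cyclooxygenase 1, had a log2 fold change of -0.53 (adjusted p = 0.0508, 0.0326 to 0.175 in the alternatives), which is also the median of this list. The list had 2 genes lower with median-ratio scaling, quantile normalization, the replicate block, voom or a mean FPKM of at least 1, and when Hemgn-/- replicate 2 was left out.

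Over the 6 libraries, the genes whose log2 levels ran most nearly parallel to the mean of the 6 primary granule genes were Igkc (Pearson r = 0.994), Paqr7 (0.993), Cd63 (0.993), Tubb5 (0.992) and Prdx5 (0.991), out of 6284 genes with a mean of at least 5 FPKM. These correlations are a description of 6 libraries that fall into 2 groups. Igkc, the immunoglobulin kappa constant region, was between 8373 and 8752 FPKM in WT and between 4418 and 5552 in Hemgn-/- libraries. The correlation between pairs of the 6 genes themselves ran from 0.56 for Mpo with Ctsg to 0.99 for Elane with Prss57, and it includes the difference between the genotypes. After the group means were subtracted, it ran from -0.79 (Mpo with Prtn3 and with Prss57) to 0.98 (Prtn3 with Prss57).

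Markers of other cells differed between the groups as well. Mitosis genes, which proliferating precursors express, fell in 16 of 25 tested and rose in 0 (median -0.62), with 10 lower without WT replicate 1 or Hemgn-/- replicate 3, and their summed level was 396.2 to 416.4 FPKM in WT and 235.7 to 239.7 in Hemgn-/- libraries. Erythroid markers fell in 5 of 11 (summed 510.5 to 597.1 and 76.76 to 100.9 FPKM) and eosinophil markers in 3 of 10 (298.7 to 354.0 and 100.5 to 115.7). The erythroid genes called were Hba-a1, Hba-a2, Hbb-bt, Hbb-bs and Alas2, and the eosinophil genes Epx, Prg2 and Prg3. The list medians were -0.49 and -0.00, with log2 fold changes below 0 in 9 of 11 and 5 of 10. Klf1 (-0.10), Tfrc (-0.05), Car2 (0.04), Siglecf (0.21) and Ccr3 (0.34), for example, were not called. Monocyte and macrophage markers fell in 2 and rose in 3 of 17 (672.9 to 700.7 and 606.5 to 703.7). B cell markers rose in 5 of 13 (1262 to 1330 and 1495 to 1677), T and NK cell markers in 4 of 15 (423.7 to 437.9 and 504.0 to 559.1) and plasmacytoid dendritic cell markers in 4 of 11 (199.7 to 224.4 and 246.9 to 284.7). HSPC markers rose in 2 of 17 (76.93 to 88.34 and 89.38 to 96.11). When 1 library was left out, 0 or 1 of the HSPC, 2 or 3 of the B cell and 2 or 3 of the plasmacytoid dendritic cell markers rose, and the monocyte and macrophage list had 1 or 2 lower and 1 to 3 higher. With eBayes without a trend, 0 of the HSPC, 1 of the B cell, 2 of the T and NK cell and 3 of the plasmacytoid dendritic cell markers rose. Limma called 0 of 10 basophil and mast cell, 8 megakaryocyte and 8 endothelial markers, whose sums were 778.9 to 856.6 and 807.6 to 849.2, 16.93 to 23.10 and 19.42 to 23.21, and 53.07 to 59.13 and 39.30 to 50.85 FPKM. At an unadjusted p under 0.05, 3 basophil and mast cell markers were higher, 1 megakaryocyte marker was higher, and 3 endothelial markers were lower and 1 higher. These unadjusted counts, too, are given without the share of all genes tested. With limma voom 2 endothelial markers were called lower, and 1 was when WT replicate 2 or Hemgn-/- replicate 1 was left out. Of the basophil and mast cell markers, 2 were called higher with the same FPKM total and 1 without Hemgn-/- replicate 2. The table lists genes above 0 in at least 1 library, so it cannot show a marker that was at 0 throughout. The part of these cells in the differences of the primary granule genes was not tested.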

How the data were processed

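Donor cells of 3 WT and 3 Hemgn-/- replicates were sequenced 6 h after transplantation. The authors deposited FPKM values per gene for the 6 libraries; the submitters' processing notes name GRCm38, Bowtie2 2.2.3, HISAT2 2.1.0, TopHat2 and HTSeq 0.6.0 without roles, and the annotation is not given in the sources used here. The labels name TruSeq libraries and the study's methods Smart-Seq2. Columns K1 to K3 and W1 to W3 were matched to samples by genotype letter and number, and 0 were left over. Of 24965 genes, 24921 matched GENCODE M21 by identifier. Depth was recovered from the steps of FPKM values; 95.7% of 13474 genes with at most 100 fragments came out whole (within 0.05) in every library. Intervals cover the spread between libraries only.

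A gene was tested if any library had more than 1 FPKM, and log2(FPKM + 1) values entered limma 3.58.1 (R 4.3.3, eBayes with a trend, two-sided, Benjamini-Hochberg over all genes tested), in which fold changes of low genes are understated. Alternatives were another pseudocount (0.1), filter, scaling or variance model, the replicate number as a block, voom on recovered fragments, and leaving out each library. The method was tested on simulated data. The 6 genes and all gene lists were chosen with earlier results of these data known. Named genes were the 6 members, Ctsc, Srgn, Serpinb1a, Cebpa, Cebpe, Gfi1, Spi1 and Myb, then in each list up to 4 called genes with the largest change and the most abundant one, the 5 most parallel genes and called neighbours; where a list has more such genes the text gives a choice of them, and other genes named serve as checks. Figures were drawn with matplotlib in Python.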

Additional observations from a re-analysis of the deposited data

How the results depend on the processing

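The decrease of Elane and Prss57 was called in all 15 alternatives, and no alternative changed the sign of any of the 6 genes. The number of the 6 genes called lower was 4, and it was 2 with no filter beyond FPKM above 0 and 2 with eBayes without a trend; leaving out 1 library gave 2 to 4. Their median log2 fold change was between -0.65 and -0.46 in all alternatives (-0.61 to -0.47 when 1 library was left out). Over all genes 887 were called, against 466 with no filter, 390 without a trend, and 373 to 688 when 1 library was left out. The replicate number as a block gave 636 calls over all genes and 3 of the 6, with Mpo at an adjusted p of 0.0528. Deviations of same-numbered libraries from their group means correlated at -0.043, -0.009 and 0.011 over 13739 genes. This does not settle whether the numbers pair the samples, because pairing need not leave a shift shared over all genes. Prtn3 was called after median-ratio scaling alone (adjusted p = 0.0460). Dividing by the longest protein-coding transcript, a setting added after the data were seen, turned the log2 ratio of Elane to Mpo in WT from 0.23 to -0.09 and moved it in Hemgn-/- cells from -0.19 to -0.51. The causes of these shifts were not tested beyond what the settings themselves change. With 3 libraries a group, exact permutation tests of single values cannot go below 0.1, and each of the 6 genes rested on 344 to 25917 fragments per library.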
